A study of Mus musculus with 6 samples.

Results

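The immunoglobulin kappa variable (Igkv) segments, which encode most of the antigen-binding part of the kappa light chain of antibodies, were followed in small intestine of model and control mice. They were taken as the rows of the deposited count table named Igkv with a number and with at least 30 reads summed over 6 libraries, a choice that does not use the groups. The table holds 136 Igkv rows among its 33017 genes, of which 89 met that sum, 20 had reads but fewer, and 27 were at 0 in every library. Just inside the threshold was Igkv8-18 with 36 reads, and just outside were Igkv18-36 with 27 and Igkv4-78 with 26. In the GENCODE M21 annotation, 98 of the 136 rows are V genes and 38 are pseudogenes, and 88 of the 89 segments are V genes. The exception, Igkv4-77, is annotated there as a pseudogene. The pseudogene rows drew 201 reads in all, and 24 of the 38 had none. Nearly all reads thus lie on rows whose symbol is annotated as a V gene. Rows were matched to the annotation by symbol alone, which does not test whether both name the same locus.

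Kappa and lambda light chains pair with heavy chains to make antibodies, and in the gut most of the antibody is IgA made by plasma cells of the lamina propria. A developing B cell builds its kappa gene by joining a variable segment to a joining (Igkj) segment upstream of the constant region Igkc. Segments that lie in the orientation of Igkc are joined by deletion of the DNA between, and segments in the opposite orientation by its inversion. Each B cell and its progeny therefore carry a chosen segment, and the segments' share of the transcripts reads out which of them the tissue's antibody-producing cells use, weighted towards plasma cells, which hold far more antibody mRNA per cell than resting B cells. In bulk tissue, fewer cells of a type and less RNA per cell cannot be told apart.

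Small intestine of mice was compared between 3 libraries labelled model and 3 labelled control, all from frozen tissue and poly-A selected RNA. The series title names simulated microgravity and radiation, and the design text speaks of a dual-factor effect, but the labels do not say how the model mice were treated, or give strain, sex, age, the part of the intestine, or whether libraries of a group came from separate animals. The p-values below therefore speak of the variation among these 6 libraries alone, and part of it may be technical. The title also names a protective compound, CB001, but neither label, model or control, mentions it. Libraries stood apart in both groups: Fabp1, a fatty acid-binding protein of enterocytes, was at 0.925 CPM in control 3 and at 821 to 1517 CPM in the other 5 libraries, pancreas genes were high in model 3, and B cell genes in model 3 and control 3 (values at the end). The part of these differences in the Igkv values was not tested.

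Usage below is a segment's share of all Igkv reads of its library. The Igkv reads numbered 40148, 76158 and 45590 in model 1, 2 and 3, and 88279, 28818 and 51568 in control 1, 2 and 3. Counting error is small at this depth: in the shallowest library, control 2, the share of Igkv10-96 was 11.3% with a 95% Clopper-Pearson interval of 10.9 to 11.7%, an interval that covers counting error only because reads are not independent molecules. Libraries of the same group differed in usage far beyond counting noise, at 73.1 to 166 units of chi-square per degree of freedom, and none was treated as a duplicate. Exons of the 89 segments span 338 to 404 bases in GENCODE M21 (median 362), so that read shares compare segments nearly per length. After scaling by exon length, 11 of the 12 most used segments stayed among the 12, and the order of the first 3 was the same.

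The germline 3′ ends of the most used segments show where they differ. Each line gives the last 60 bases of the GENCODE M21 transcript (GRCm38 reference, chromosome 6), with the codon of the conserved cysteine that opens CDR3, the antigen-contacting loop, in capitals. The bases after it are the part of CDR3 that the segment itself brings, before joining.
Igkv10-96: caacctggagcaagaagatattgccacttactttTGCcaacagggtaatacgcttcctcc
Igkv1-117: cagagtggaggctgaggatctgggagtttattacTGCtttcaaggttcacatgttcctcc
Igkv14-111: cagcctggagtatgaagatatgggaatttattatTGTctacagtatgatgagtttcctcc
Igkv1-110: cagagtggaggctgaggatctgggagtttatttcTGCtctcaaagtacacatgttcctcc
Igkv5-48: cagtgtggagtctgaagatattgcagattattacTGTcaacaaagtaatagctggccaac
Igkv19-93: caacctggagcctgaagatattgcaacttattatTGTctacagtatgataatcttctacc
All 6 bring 23 bases after the cysteine codon.

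Reads can be divided between close relatives, because the counting of ambiguous reads is not stated. Whole transcripts of 2 segments of the same family were 88.9% identical in the median, and of different families 63.7%. There were 33 pairs at 95% identity or more, made up of 37 segments, and 39 of the 89 segments shared at least 1 stretch of 100 bases with the transcript of another gene. Among the 12 most used, at most 20.4% of a segment's stretches of 100 bases were shared. Relatives are shown with the bases that differ within the pair in capitals. Igkv17-127 and Igkv17-121, 97.5% identical over the whole transcript, differ at 2 of the last 60 bases, and Igkv10-96 and Igkv10-94, 95.4% identical, at 10.
Igkv17-127: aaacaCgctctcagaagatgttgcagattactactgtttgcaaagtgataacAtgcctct
Igkv17-121: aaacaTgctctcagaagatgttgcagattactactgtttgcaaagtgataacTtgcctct
Igkv10-96: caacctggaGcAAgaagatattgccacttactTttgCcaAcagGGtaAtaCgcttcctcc
Igkv10-94: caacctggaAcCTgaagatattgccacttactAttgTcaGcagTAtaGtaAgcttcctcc
Igkv5-43 and Igkv5-45, 98.4% identical, do not differ in these 60 bases at all, so their values below the family level are uncertain.

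Kappa variable transcript as a whole was found in every library, and the groups overlapped. The Igkv total, in counts per 1000000 reads (CPM) of the library as scaled by TMM, which corrects for a few genes taking many reads, was 1388, 1725 and 1297 CPM in model 1, 2 and 3, against 1839, 769 and 1223 CPM in control 1, 2 and 3. The highest and the lowest library were both controls. The means were 1470 ± 225 CPM in model and 1277 ± 537 CPM in control tissue (SD, n = 3 each), a difference of 193 CPM with an exact two-sided permutation p = 0.6, where 3 libraries against 3 cannot go below 0.1. The difference was 3.06 CPM with libraries scaled by size alone and -60.9 CPM without control 2.

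**Figure D1:**
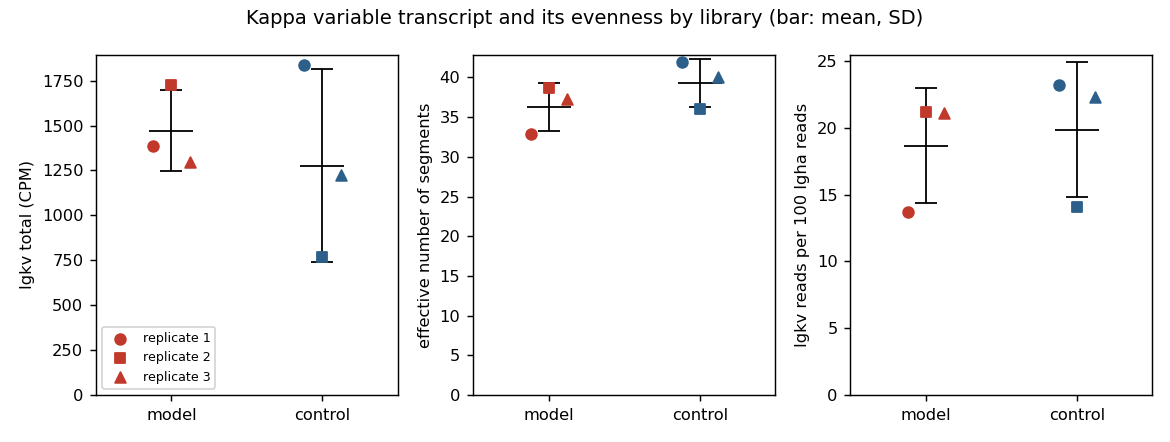
Igkv total in CPM (left), effective number of Igkv segments (middle) and Igkv reads per 100 Igha reads (right), with 1 point per library and the mean and SD of each group as bars. The groups overlap in all 3 panels, and model 1 and control 2 have the lowest Igkv reads per 100 Igha reads, at 13.7 and 14.0.

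Relative to Igha, the constant region of IgA, 2 libraries stood apart, 1 in each group. There were 13.7, 21.2 and 21.1 Igkv reads per 100 Igha reads in model 1, 2 and 3, against 23.2, 14.0 and 22.3 in control 1, 2 and 3 (exact permutation p = 0.5). The heavy chain variable (Ighv) segments were low in the same 2 libraries, at 3.90, 7.14 and 8.55 reads per 100 Igha reads in model 1, 2 and 3 and 8.60, 5.16 and 7.61 in control 1, 2 and 3. Igkv reads per 100 Ighv reads were 351, 296 and 247 in the model libraries and 270, 272 and 293 in the control libraries (exact permutation p = 0.6). The deposited counts hold 76 Ighv rows against 136 Igkv rows. Whether they cover both loci equally was not tested, so the size of this ratio may depend on the rows listed. Igha itself measured 10152, 8149 and 6150 CPM in model tissue against 7915, 5477 and 5487 CPM in control tissue, and Jchain, which links antibody units into dimers, 1680, 1297 and 1058 CPM against 1303, 1047 and 1026 CPM. Igkc, Igkj1 to Igkj5, Iglc1 and Iglc3 are listed at 0 throughout the table, and what those zeros mean for the transcripts was not tested. Of the lambda light chain, Iglc2 gave between 0.679 and 1.69 reads per 100 Igkv reads.

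Usage was uneven and spread over many segments. The 12 most used held 54.2% of the Igkv reads in the mean of the 6 libraries, the 28 segments at 1% or more held 80.7%, and the 18 segments under 0.1% held 0.624% together. Of the 89 segments, 78 were detected in every library. The effective number of segments, the exponential of the Shannon entropy of the shares, was 32.9, 38.7 and 37.3 in model 1, 2 and 3 against 41.9, 36.0 and 40.1 in control 1, 2 and 3. The 12 most used segments held 60.1, 51.5 and 55.5% in the model libraries against 51.2, 58.8 and 48.3% in the control libraries. Both measures overlapped between the groups, with exact permutation p = 0.3 for the effective number and 0.5 for the share of the 12. For Ighv the effective number was 22.1, 20.1 and 18.8 in model and 22.5, 19.3 and 18.8 in control libraries.

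Igkv10-96 ranked first in each of the 6 libraries. Its shares were 13.0, 10.7 and 14.8% in model 1, 2 and 3, against 9.90, 11.3 and 7.95% in control 1, 2 and 3. Control 2 lay above model 2, so the groups overlapped. Its level differed by a log2 fold change of 0.61 (SE 0.30), which did not pass the test (edgeR quasi-likelihood, adjusted p = 0.85). Its relative Igkv10-94, which lies near it in the locus, had 3.55, 2.76 and 3.50% in the model libraries and 2.80, 1.98 and 1.18% in the control libraries. Together with the rare Igkv10-95 they form family 10, whose share was 16.6, 13.6 and 18.3% in model 1, 2 and 3 and 12.7, 13.3 and 9.15% in control 1, 2 and 3, higher in every model library than in any control library.

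Igkv1-117 was second in mean share. It held 10.7, 7.48 and 5.71% in model 1, 2 and 3, against 5.27, 5.28 and 4.99% in control 1, 2 and 3. All 3 control values lay within a narrow range and below every model value, while model 1 was the highest by far. In CPM the groups overlapped (148, 129 and 74.0 CPM in model against 96.8, 40.6 and 61.0 CPM in control tissue), with a log2 fold change of 0.82 (SE 0.38, edgeR adjusted p = 0.85). Its close relative Igkv1-110, 97.5% identical, had 3.75, 6.10 and 4.50% in model and 4.55, 4.30 and 2.54% in control libraries, and family 1 as a whole, at 13.5 to 17.0% in model and 12.9 to 16.3% in control libraries, overlapped.

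Igkv14-111 was the third. Its share was 6.88, 5.24 and 5.64% in model 1, 2 and 3, against 3.46, 3.66 and 4.92% in control 1, 2 and 3, and its level 95.5, 90.4 and 73.1 CPM against 63.6, 28.2 and 60.2 CPM. Every model library was above every control library on both scales. The log2 fold change was 0.77 (SE 0.32, unadjusted p = 0.045, edgeR adjusted p = 0.85), which did not pass. Its family 14 had 7.69, 5.81 and 5.88% in model against 3.84, 3.85 and 5.18% in control libraries, without overlap. Igkv14-111 is most of that family, with a mean share of 4.97% against 5.38%, so the family is not a separate observation.

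Igkv1-135, the segment farthest from the joining segments among the 89, had the opposite order. It held 1.52, 1.18 and 1.90% in model 1, 2 and 3, against 1.99, 3.92 and 6.87% in control 1, 2 and 3. Every model library was lower, though model 3 and control 1 were nearly equal. The log2 fold change was -1.19 (SE 0.39, unadjusted p = 0.0174, edgeR adjusted p = 0.85) and -0.58 without control 3, the library highest in this segment.

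Other abundant segments were high in 1 or 2 libraries. Igkv15-103 held 9.52% of control 2, against 0.844 to 3.92% of the other 5 libraries, an 11.3-fold range that was the widest among the 12 most used segments. Igkv5-48 held 8.57% of model 1 and 6.15% of control 2, and 2.06 to 3.41% of the rest. Igkv6-23 and Igkv17-121 were highest in control 1, at 5.82% and 5.67%, and at most 3.57% and 2.74% elsewhere. Igkv17-121 and its near-copy Igkv17-127 had similar mean shares, 2.65% and 2.69%, but in control 1 they measured 5.67% and 2.03%. Igkv19-93, the single member of its family, was among the steadier ones, with 2.64 to 4.43% in model and 4.27 to 5.12% in control libraries. The ratio of the highest to the lowest library had a median of 2.25 among the 12 most used segments and of 4.45 among the 76 tested segments that had reads in every library. The standard error of the log2 fold change was larger for the segments than for other genes: its median was 0.39 for the 12 most used, against 0.24 for the 3967 tested genes within the same range of mean level (36.1 to 154 CPM).

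**Figure D2:**
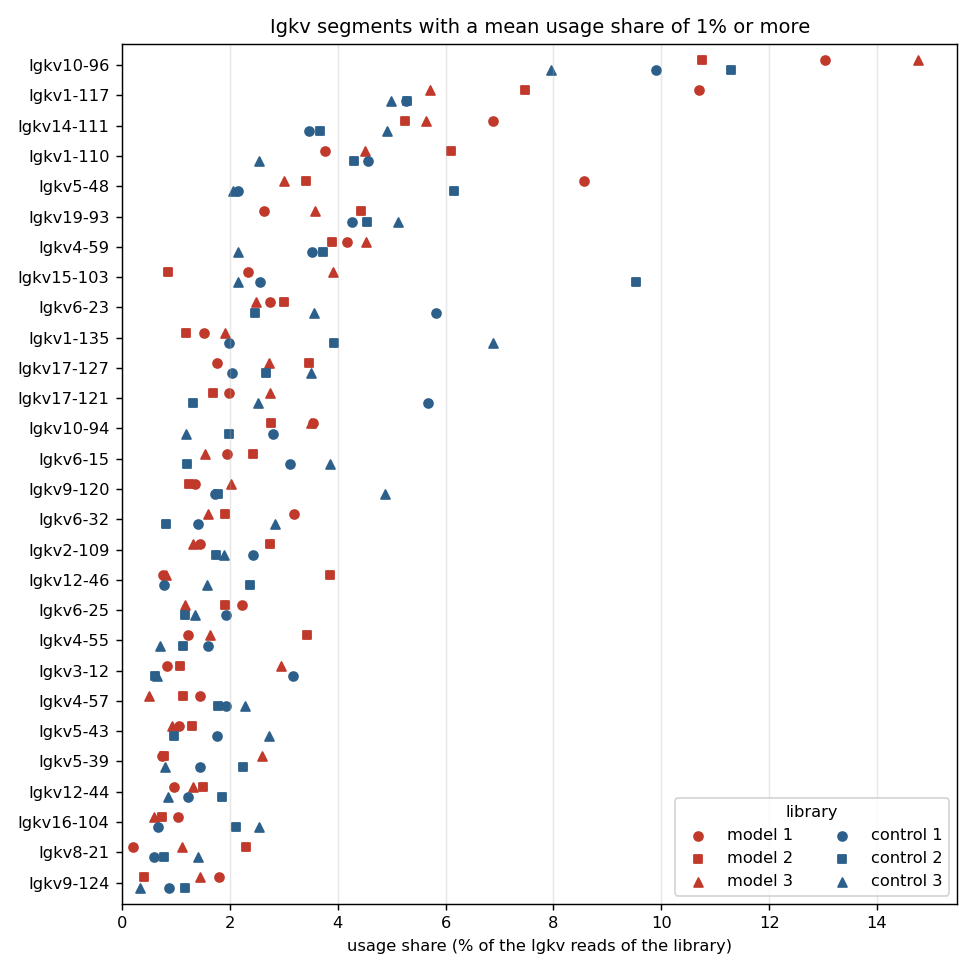
Usage share in percent of the Igkv reads of a library (x axis) for the 28 segments with a mean share of 1% or more (y axis, most used at the top), with 1 point per library, model above control in each row. Igkv10-96 is the highest segment of every library, and Igkv15-103 stands out in control 2 and Igkv5-48 in model 1 and control 2.

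No segment passed the test between model and control tissue. Of the 89, 80 had enough reads to be tested and 9 did not, and 0 were called by edgeR's quasi-likelihood test at an adjusted p under 0.05 (smallest adjusted p = 0.85), as were 0% of all 15904 genes tested. At an unadjusted p under 0.05 there were 8 segments, 4 higher and 4 lower, or 10% of those tested, against 4.80% of all genes (1.82% higher and 2.99% lower). With DESeq2 as an alternative tool, 2 segments were called, where it called 0.158% of all genes, and 15 segments (18.8%) had an unadjusted p under 0.05, against 6.51% of all genes. Fold changes above 0 were found for 50 of the 80 segments, against 48.2% of all genes. The median log2 fold change was 0.26 over the tested segments, against -0.02 over all genes, and 0.05 over the segments with libraries scaled by size alone, a scaling that put the median of all genes at -0.21. The range ran from -1.87 to 4.51.

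The 2 segments that DESeq2 called are rare. Igkv5-37 had 33, 167 and 13 reads in model 1, 2 and 3, against 8, 0 and 2 reads in control 1, 2 and 3, or 0.0822, 0.219 and 0.0285% of Igkv reads against 0.00906, 0 and 0.00388%. Every model library was above every control library, but the lowest model and highest control values rest on 13 and 8 reads. The Clopper-Pearson intervals of these shares, 0.0152 to 0.0488% in model 3 and 0.00391 to 0.0179% in control 1, overlapped. In control 2, 0 of 28818 reads allows a share of up to 0.0104%, taking 3 counts as the limit, and 0.0128% by Clopper-Pearson. The control libraries held at most 8 reads each. Igkv5-37 thus met the required sum of reads only through the model libraries, where it is higher. Its test values that follow rest on those reads, so they cannot show a difference apart from that selection. It is counted among the higher segments with a small unadjusted p above and among the 2 called by DESeq2. The edgeR log2 fold change was 4.51 (SE 1.22, unadjusted p = 0.00682, adjusted p = 0.85), and the adjusted p was 0.0328 with DESeq2 and 0.0461 with edgeR when libraries were scaled by their Igkv total. That scaling called 27 of all 15904 genes tested. The log2 fold change of Igkv5-37 was 3.29 without model 2, which holds most of its reads, and 5.99 without control 1. Igkv4-79 had 73, 182 and 123 reads in the model libraries against 49, 18 and 49 in the control libraries, or 0.182, 0.239 and 0.270% against 0.0555, 0.0625 and 0.0950%. Its groups did not overlap either, and its 3 model values were closer together than those of Igkv5-37. The edgeR log2 fold change was 1.92 (SE 0.45, unadjusted p = 0.00321, adjusted p = 0.85), and DESeq2 gave adjusted p = 0.0302. Their 3′ ends, shown in the same way as above, differ in the length of the part after the cysteine codon, with 23 bases in Igkv5-37 and 25 in Igkv4-79.
Igkv5-37: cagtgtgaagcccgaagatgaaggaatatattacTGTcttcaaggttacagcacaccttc
Igkv4-79: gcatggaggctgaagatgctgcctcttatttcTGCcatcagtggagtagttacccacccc
None of the stretches of 100 bases of Igkv5-37 occurred in another gene, while 16.6% of those of Igkv4-79 occurred in Igkv4-61, Igkv4-68 or Igkv4-78.

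The other segments with an unadjusted p under 0.05 were Igkv8-19, Igkv12-98 and Igkv4-80, lower, and Igkv14-100, higher. Igkv8-19 held 0.164, 0.105 and 0.233% in the model libraries against 0.643, 1.30 and 0.225% in the control libraries, with control 3 just under model 3. Igkv12-98 held 0.182, 0.217 and 0.276% against 1.29, 0.295 and 0.737%. Igkv4-80 held 0.167, 0.165 and 0.202% against 0.741, 0.50 and 0.239%. The last 2 did not overlap, and in all 3 the control libraries varied more than the model libraries. Igkv14-100 held 0.0897, 0.511 and 0.167% in the model libraries against 0.0714, 0.101 and 0.103% in the control libraries, and model 2 carried most of its difference. Their edgeR adjusted p was 0.85. The log2 fold change of Igkv14-100 was 1.87, and 0.62 without model 2. That of Igkv12-98 was -1.83, and -0.77 without control 1, and that of Igkv4-80 was -1.39, and -0.37 without control 1.

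Usage shares did not overlap between the groups for 12 of the 89 segments, 6 higher and 6 lower in the model libraries, or 13.5%. This share was close to that of the 41 Ighv segments with at least 30 reads, of whose shares of the Ighv total 12.2% did not overlap (7.32% higher and 4.88% lower). In CPM, 5 of the 80 tested segments (6.25%) did not overlap, 3 higher and 2 lower, against 11.1% of all genes (4.73% higher and 6.33% lower). Besides Igkv1-117, Igkv14-111, Igkv5-37 and Igkv4-79, the higher ones were Igkv4-59 and Igkv6-14. Igkv4-59 held 4.18, 3.90 and 4.52% in model against 3.52, 3.72 and 2.16% in control libraries, with little distance between model 2 and control 2. The lower ones were Igkv1-135, Igkv12-98, Igkv4-80, Igkv4-57 and 2 segments too rare to be tested, Igkv6-29 and Igkv8-18. Igkv4-57 held 1.44, 1.12 and 0.496% in model against 1.92, 1.78 and 2.28% in control libraries. Igkv6-29 had 1, 2 and 0 reads in model against 42, 7 and 9 reads in control libraries, but 55.8% of its stretches of 100 bases occur in Igkv6-20. It met the sum of 30 reads only through the control libraries, as Igkv5-37 did through the model libraries. Both are among the 12 segments counted here.

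**Figure D3:**
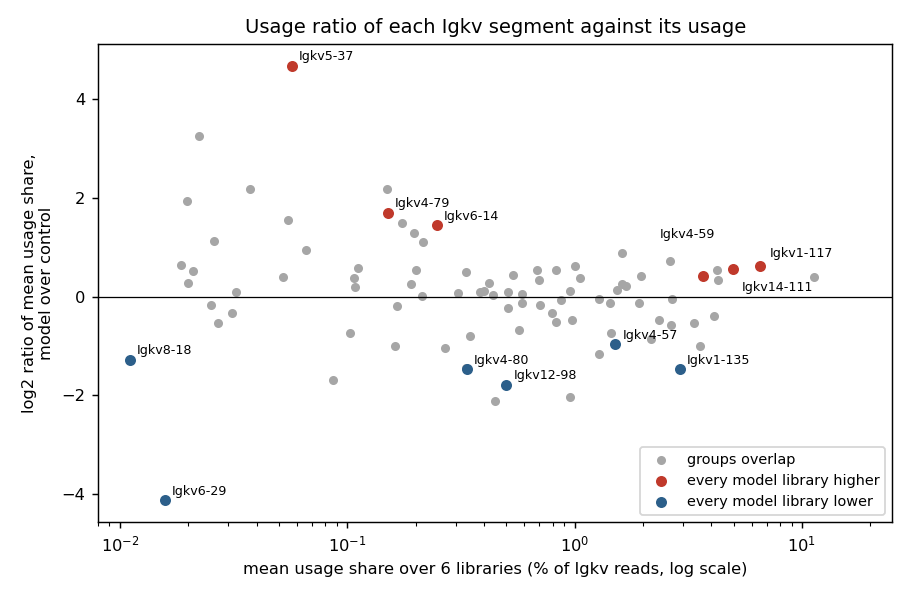
Log2 ratio of the mean usage share in model over control libraries (y axis) against the mean usage share over 6 libraries in percent of Igkv reads (x axis, log scale), with 1 point per segment. Coloured and named are the 12 segments without overlap between the groups, 6 above and 6 below 0. Ratios are widest for the rarest segments, such as Igkv5-37 and Igkv6-29.

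Between whole usage profiles, libraries of different groups were hardly farther apart than libraries of the same group. The Bray-Curtis distance, the share of reads that would have to move to another segment to make 2 profiles equal, averaged 0.263 between groups and 0.25 within groups (exact one-sided permutation p = 0.2, smallest possible 0.1). The closest pair was model 3 and control 1, at 0.205, and the farthest was model 1 and control 3, at 0.331. For Ighv the same averages were 0.311 and 0.303. The difference of 0.0131 for Igkv turned to -0.0114 without model 1.

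By family, 3 of the 17 families held over 13% of the reads each in the mean of the 6 libraries, though not in every library. Family 1 averaged 15.2 ± 1.77% in model and 14.5 ± 1.74% in control libraries (SD, n = 3 each here and below). Family 10 averaged 16.1 ± 2.39% in model and 11.7 ± 2.24% in control libraries. Family 4, the largest with 24 of the 89 segments, averaged 14.2 ± 2.28% in model and 13.2 ± 1.95% in control libraries. Family 6 had 11.1, 10.7 and 7.69% in model against 14.0, 6.25 and 15.5% in control libraries, and family 5 had 10.6, 5.92 and 6.69% against 5.64, 9.43 and 5.74%. Both overlapped widely. Families 10 and 14 were the 2 of 17 (11.8%) whose groups did not overlap, both higher in the model libraries, a share near the 12.2% of Ighv segments and 11.1% of all genes without overlap. In family 10, model 2 and control 2 were almost equal, at 13.6% and 13.3%. Family 14 consists largely of Igkv14-111 and mostly repeats its values.

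**Figure D4:**
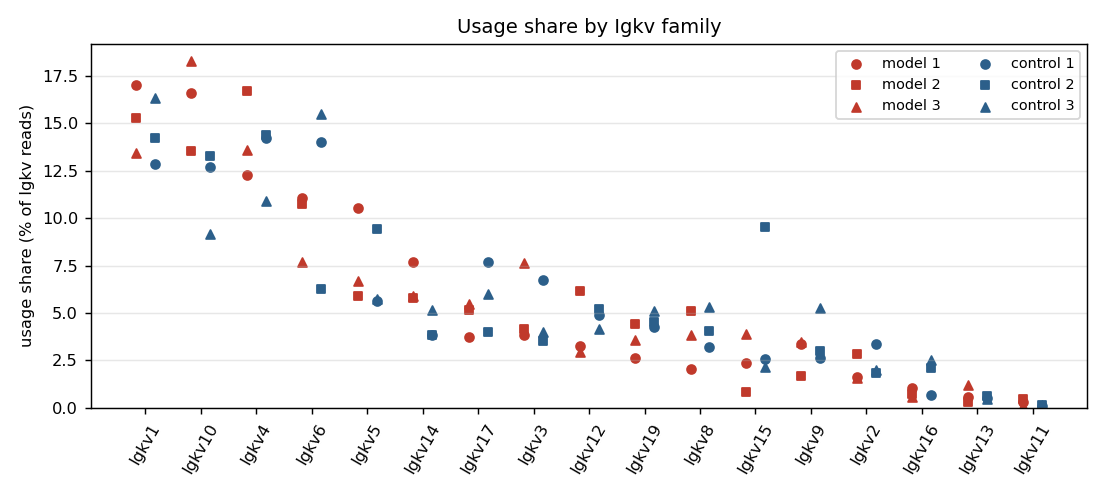
Usage share in percent of Igkv reads (y axis) of the 17 Igkv families (x axis, ordered by mean share), with 1 point per library, model left of control. Families 10 and 14 are the 2 without overlap between the groups, and control 2 stands out in family 15, whose single member is Igkv15-103.

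Along the locus, used segments lay throughout. Ordered by their distance from the joining segments in GENCODE M21, the nearest 23 of the 89 segments held 13.7, 18.0 and 17.6% of the reads in the model libraries and 22.5, 13.0 and 22.0% in the control libraries. The farthest 22 segments, 20 of them in the orientation of Igkc, held 36.9, 32.6 and 34.3% in the model and 33.4, 38.4 and 38.7% in the control libraries, more than any of the 3 stretches of 22 or 23 segments nearer to the joining segments in each library. Of the 89 segments 33 lie in the orientation of Igkc and 56 in the opposite one. Those in the orientation of Igkc held 41.5, 38.7 and 42.3% in model 1, 2 and 3, against 42.7, 42.4 and 44.6% in control 1, 2 and 3. Each model library was lower, by a mean of 2.37 percentage points, with model 3 and control 2 almost equal. The exact permutation p was 0.1, the smallest possible, and 0.6 after Benjamini-Hochberg adjustment over the 7 library values tested, as it was for the other 6.

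**Figure D5:**
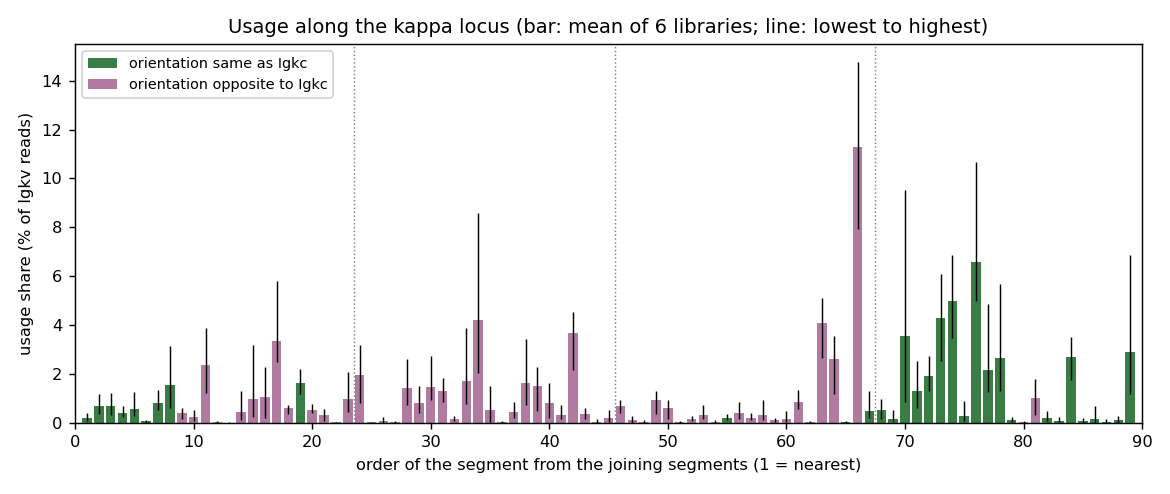
Mean usage share in percent of Igkv reads (y axis) of the 89 segments in their order from the joining segments in GENCODE M21 (x axis, 1 = nearest), coloured by orientation, with a line from the lowest to the highest library and dotted lines between 4 stretches of 22 or 23 segments. The tallest bar, Igkv10-96, lies in the opposite orientation to Igkc, and 20 of the farthest 22 segments lie in the same orientation.

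Genes of the cells that use the segments did not pass the test either. Of 17 tested plasma cell genes 0 were called, with a median log2 fold change of 0.10 and a summed level of 8673 to 13438 CPM in model and 7824 to 10769 CPM in control libraries. Of 19 tested B cell genes 0 were called and 0 had a fold change above 0 (median -0.70). Their summed level was 121, 152 and 487 CPM in model 1, 2 and 3, against 177, 136 and 737 CPM in control 1, 2 and 3, so that model 3 and control 3 stood apart in both groups. Ighd, the constant region of naive B cells, was at 32.8 CPM in model 3 and 68.7 CPM in control 3 and at most 4.17 CPM elsewhere. The part of these B cells in the usage of model 3 and control 3 was not tested. Mzb1 and Ms4a1 are listed at 0 throughout. Of 9 tested germinal centre genes 0 were called (median 0.30). In the list of recombination and surrogate light chain genes 0 of 8 were called (median -0.19), with Rag1 and Rag2 listed at 0 in all libraries. Of 15 genes for transcription factors of the kappa locus and B cells 0 were called (median -0.14), as were 0 of 8 constant region genes (median -0.19) and 0 of 8 genes of IgA transport and homing (median -0.12). Pigr, the receptor that carries IgA across the epithelium, measured 7141, 8170 and 6626 CPM in model against 6767, 9087 and 3618 CPM in control tissue. At an unadjusted p under 0.05, edgeR gave 1 gene of these 7 lists, the germinal centre and apoptosis receptor gene Fas, higher in model tissue. Tissue markers gave 7188 to 10977 summed CPM of epithelial, 95.8 to 175 CPM of T cell and 852 to 1942 CPM of smooth muscle markers, and 0 of 6, 7 and 5 tested genes were called. Control 3 was at the low end of the epithelial sum and nearly lacked Fabp1 (39 reads), while Fabp2 is listed at 0 throughout. Its other epithelial markers were not uniformly low. Vil1, a brush border protein, and Lgals4 were at their lowest there, at 1808 and 1730 CPM, but Epcam and Krt20 were second highest, at 1620 and 1894 CPM. At an unadjusted p under 0.05 there were 2 of 7 T cell genes, higher, 1 of 5 smooth muscle genes, lower, and 3 of the 3 tested pancreas genes, higher in model tissue, against 1.82% of all genes higher and 2.99% lower. Pancreas genes summed to 5046 CPM in model 3 and at most 25.7 CPM in the other libraries, with 0 of 3 tested genes called, and the part of such tissue in the values of model 3 was not tested.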

How the data were processed

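The deposited file is 1 table of read counts, whole and not normalized by the authors, for 33017 gene symbols in 6 libraries. Per the submitters' processing notes the tools were FastQC, Trimmomatic, STAR and featureCounts on build GRCm39, with versions and settings not given in the sources used here. Strand and multi-mapping settings are thus unknown, so close segments may share or lose reads, and reads of mutated antibody transcripts may map poorly. Columns were matched to samples by library name (0 left unmatched). Library totals were 35007515 to 45285564 counts.

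Genes were kept by filterByExpr (15904), scaled by TMM and tested with edgeR 4.0.16's robust quasi-likelihood F test on the group alone (R 4.3.3), with Benjamini-Hochberg adjustment over all genes tested, called under 0.05. Standard errors were recovered from the log2 fold change and F. Library values were compared by exact permutation of the group labels. DESeq2 1.42.0, other scalings and filters, the replicate block and each library left out were alternatives. Code was tested on simulated data in which every gene had the same spread, which checks the code and not how the test performs on these libraries.

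Members and gene lists were chosen with earlier results of these data known. Named are the 12 most used segments, the 3 highest of each library, those at 10% or more in a library, up to 6 a direction without overlap at a mean share of at least 0.5%, the 8 with the smallest unadjusted p under 0.05, the 6 most used families, and the segments nearest the threshold. Igkv10-94, Igkv10-95, Igkv5-43, Igkv5-45, Igkv6-14, Igkv6-20, Igkv6-29, Igkv4-77, other families and the genes Fas, Pigr, Rag1 and Rag2 were named after their values were seen. Order, orientation, lengths and sequences came from GENCODE M21 (GRCm38), matched by symbol for all 89 segments, and no coordinates are printed because the builds differ.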

Additional observations from a re-analysis of the deposited data

How the results depend on the processing

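The number of called segments was 0 in 11 of 13 alternatives, the replicate block and every fit without 1 library among them. The smallest adjusted p in those edgeR fits ran from 0.74 to 1.0. Scaling libraries by the Igkv total called 1 segment (Igkv5-37), among 27 called of all 15904 genes tested. DESeq2 called 2 segments (Igkv5-37 and Igkv4-79), among 25 called of all 15836 genes. Of these, Igkv5-37 met the required sum of reads through the model libraries alone. Model and control libraries share replicate numbers, but same-numbered libraries did not all deviate together (correlation over genes -0.08, -0.30 and 0.33 for replicates 1, 2 and 3). The highest correlation, 0.53, was between model 1 and control 2, so the numbers were not read as pairs. The replicate block moved the count at an unadjusted p under 0.05 to 9, against 8. Without 1 library this count ran from 5 (without model 2) to 18 (without control 1), each of 83 segments tested. With scaling by the Igkv total it was 13. The share of all genes at this p was not computed for these fits. The median log2 fold change of the segments stayed above 0 in the 13 alternatives, from 0.10 to 0.68 without 1 library, 0.05 with library size alone and 0.06 with scaling by the Igkv total, scalings that put the median of all genes at -0.21 and -0.37. Without 1 library, the difference in Igkv total ran from -60.9 (without control 2) to 474 CPM, the distance between minus within groups from -0.0114 (without model 1) to 0.0355, and the difference in effective number from -4.71 to -1.34. The number of segments without overlap was 12, 6 on the CPM scale and 18 to 27 without 1 library, where fewer values per group overlap less by construction. Igkv reads per 100 Igha reads differed by -1.21, and by -4.12 to 1.28 without 1 library, with the sign turned without model 1 (1.28), control 1 (0.478) or control 3 (0.00597). Igkv reads per 100 Ighv reads differed by 19.5, and by -6.93 (without model 1) to 45.1 without 1 library. The cause of these turns was not tested. Length-scaled shares, chosen after seeing the data, gave -2.98 for the effective number and 0.0129 for the distance. Exact tests of 3 libraries against 3 cannot pass 0.05, so their p-values say nothing of stability.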

Other observations

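The genes outside the kappa locus whose level over the 6 libraries was most like the Igkv total were Ighv1-82, C1qc, Mmp10, Gsdma2 and Tifab, with Pearson correlations of log2 CPM between 0.971 and 0.986. They are the highest of all tested genes by a rule, which carries no test. C1qc, a complement component made by macrophages, measured 28.1, 35.5 and 30.3 CPM in model 1, 2 and 3, against 35.6, 16.4 and 26.7 CPM in control 1, 2 and 3. Ighv1-82, a heavy chain segment, measured 14.0, 32.2 and 13.9 CPM in the model libraries and 26.5, 3.47 and 10.6 CPM in the control libraries.

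Model 1 and control 2, the 2 libraries with the fewest Igkv and Ighv reads per Igha read, also had the lowest levels of Irf4, a factor of plasma cell identity, at 12.6 and 9.63 CPM against 28.2 to 40.9 CPM in the other 4, and of Pou2af1, a co-activator of octamer-dependent antibody transcription, at 18.9 and 15.1 CPM against 32.8 to 64.7 CPM. Over all tested genes the deviations of these 2 libraries from their group means had a correlation of 0.53. Irf4 and Pou2af1 were chosen after their values were seen. Of the 17 plasma cell genes with reads, 8 had their lowest levels in these 2 libraries (Prdm1, Irf4, Tnfrsf17, Derl3, Fkbp11, Pou2af1, Txndc5 and Tent5c), while 4 were highest of all 6 libraries in model 1, namely Igha, Jchain, Xbp1 and Ssr4. The share of all tested genes with this order was not computed, so it cannot be called a trait of plasma cell genes. Among T cell genes, Cd4 was also lowest in these 2 libraries (9.64 and 7.07 CPM against 17.6 to 21.8 CPM), while Cd3g was highest in model 1 (32.5 CPM).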
